A study of Arabidopsis thaliana with 18 samples.

Results

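Serine carboxypeptidase-like (SCPL) genes form one of the large hydrolase families of plants. The genes described here are scpl35, SCPL45, SCPL49 and scpl50. They were picked by name because their deposited array signals differed between days or between extract treatments. Each is read by 1 probe set of its own, so 4 of the 13286 genes that the annotation pairs with a probe set of their own are described, from an array of 22810 probe sets. The differences between days and treatments that chose these genes are given below as values with their errors, and no test is attached to them. The family has 51 genes in the RefSeq annotation, and 29 of them had a probe set that pairs with no other gene. The other 25 family genes with such a probe set serve as a comparison.

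The study measured RNA from leaves of 2-week-old Arabidopsis thaliana plants on Affymetrix arrays, which carry a set of short probes for each gene. Every plant was first held in 150 mM NaCl for 24 hours, so no unsalted group is among the 18 arrays. The plants then received 1 of 3 treatments made from or matched to Ascophyllum nodosum, a brown seaweed used as a crop biostimulant. The 6 groups of 3 arrays were salt plus the ethyl acetate sub-fraction (EAA) on day 5, salt plus the methanol extract (MEA) on day 5, the salt reference on day 5, and the same treatments on day 1. The salt reference received 0.1% aqueous methanol in place of an extract, and it is called the NaCl reference here. The 6 reference arrays carry contradictory labels: their source names give NaCl alone, whereas their titles and descriptions give EAA. They were grouped by source name, so any value set against the reference holds only if the source name is right. The titles number biological replicates but do not say whether these were separate plantings, so errors measure the spread between these samples.

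Serine carboxypeptidases share the alpha/beta hydrolase fold and a catalytic triad of serine, aspartate and histidine, and they remove single amino acids from the carboxy-terminal end of peptides and proteins. In plants some SCPL proteins have become acyltransferases: SNG1 makes sinapoylmalate, a leaf sunscreen, and SNG2 makes sinapoylcholine in seeds, both from sinapoylglucose. Peptidases of the family work in the vacuole or outside the cell, where they take part in protein turnover. SCPL49 carries the synonym carboxypeptidase Y, after the vacuolar peptidase of yeast that is a classic cargo of sorting to the vacuole. The names of scpl35, SCPL45 and scpl50 record family membership.

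SCPL49 is gene AT3G10410 and was read by probe set 258970_at. The locus codes of the other genes are AT5G08260 for scpl35 (probe set 250517_at), AT1G28110 for SCPL45 (259599_at) and AT1G15000 for scpl50 (260739_at). In the RefSeq gene order none of the protein-coding genes next to them belongs to the SCPL family. Signals are on a log2 scale, on which a step of 1 doubles the signal. Treatments and days are compared between arrays for 1 gene, because probe sets differ in how strongly they bind. Levels of different genes are set together only for a limit on mean signal, a check of tissue markers and the choice of named genes.

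The MEA arrays of day 5 did not behave as 1 group. Over the 4220 probe sets that differed between the days in the NaCl reference (30.9% of those tested, adjusted p under 0.05 by limma, a linear model fitted to every probe set), each array was placed on a line on which 0 is the reference mean of day 1 and 1 the reference mean of day 5. MEA day 5 replicates 1 and 3 lay at 0.228 and 0.186, close to the day 1 arrays, whereas MEA day 5 replicate 2 lay at 0.941. The EAA arrays of day 5 lay at 0.917 to 1.02 and the reference arrays of day 5 at 0.941 to 1.04. The median SD between replicates was 0.337 with MEA on day 5, against 0.126 to 0.201 in the other groups. The actin control probe sets, which read the 3′ and 5′ ends of 1 transcript and so report on RNA quality, differed by 2.88 and 2.30 (log2) on MEA day 5 replicates 1 and 3. EAA day 5 replicate 1 had 2.78 and the other 15 arrays 1.56 to 2.03. The part of RNA quality in the results was not tested. Results that rest on these arrays are therefore also given without them.

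SCPL49 was lower on day 5 than on day 1 in all 3 treatments, by 1.84 log2 units in the NaCl reference but by about 0.9 with either extract. With EAA its signal was 7.99, 8.18 and 7.62 on the 3 arrays of day 5, against 8.62, 9.12 and 8.72 on day 1. With MEA it was 8.33, 8.16 and 8.53 on day 5, against 9.48, 8.95 and 9.21 on day 1. In the NaCl reference it was 7.51, 7.49 and 7.23 on day 5, against 9.20, 9.38 and 9.19 on day 1. Every day 5 array of a treatment lay below every day 1 array of that treatment. The log2 difference was -0.89 with EAA, -0.87 with MEA and -1.84 in the reference, each with a standard error (SE) of 0.18 from the limma fit over the 18 arrays. The MEA difference was -1.05 from day 5 replicate 2 alone and -0.78 from replicates 1 and 3. As folds, the day 5 signal was 1.85 times lower with EAA, 1.83 times lower with MEA and 3.59 times lower in the reference.

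The treatments of SCPL49 differed in order between the days. On day 5 the group means were 8.34 ± 0.18 with MEA, 7.93 ± 0.28 with EAA and 7.41 ± 0.16 in the NaCl reference (SD, n = 3 each). All 3 MEA arrays and all 3 EAA arrays lay above all 3 reference arrays. On day 1 the means were 9.21 ± 0.26 with MEA, 8.82 ± 0.26 with EAA and 9.25 ± 0.11 in the reference. All 3 EAA arrays lay below the reference on day 1, whereas the MEA and reference arrays overlapped. EAA minus reference was 0.52 on day 5 and -0.43 on day 1 (SE 0.18), a turn of 0.95 (SE 0.25) between the days. MEA minus reference was 0.93 on day 5 and -0.04 on day 1, a turn of 0.97 (SE 0.25). Both extract comparisons use the same 3 reference arrays on each day, so the 2 turns are not separate observations. MEA day 5 replicate 2, the array of that group that lay close to the reference in position, gave 0.75 over the reference on its own. The SD of its MEA arrays of day 5, 0.18, was the smallest among the 4 genes, which otherwise had 0.73 to 1.42.

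scpl35 had the widest range of the 4 genes, from 4.96 to 8.08, and its level followed the day rather than the extract in the EAA and reference arrays. Its EAA arrays had 5.203, 5.51 and 6.03 on day 5, against 7.79, 7.67 and 7.73 on day 1. Its NaCl reference arrays had 5.59, 5.87 and 5.63 on day 5, against 7.86, 7.68 and 7.66 on day 1. In both treatments all day 5 arrays lay below all day 1 arrays, and by more than the spread of any of these groups (largest SD 0.42). The difference was -2.15 with EAA and -2.04 in the reference (SE 0.45), or 4.44 and 4.102 times lower. That SE is pooled over the 6 groups, and without MEA day 5 replicates 1 and 3 it was 0.17 with the same differences.

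With MEA, scpl35 had 6.62, 4.96 and 7.80 on day 5, against 7.76, 8.08 and 7.91 on day 1. Replicate 2 was the lowest of all 18 arrays, and replicate 3 lay among the day 1 arrays. The mean difference of -1.46 (SE 0.45) therefore joins unlike arrays: it was -2.96 from replicate 2 alone and -0.71 from replicates 1 and 3. EAA minus reference was -0.12 on day 5 and -0.00 on day 1 (SE 0.45), with overlapping arrays on both days. MEA minus reference was 0.76 on day 5 and 0.18 on day 1. The day 5 value turned to -0.74 when replicate 2 alone stood for MEA.

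SCPL45 gave much the same picture at smaller size. Its signal with EAA was 4.68, 4.82 and 4.58 on day 5, against 6.26, 6.11 and 6.55 on day 1. In the reference it was 4.81, 5.41 and 4.68 on day 5, against 6.19, 6.09 and 6.40 on day 1. Again no day 5 array of these treatments reached a day 1 array. The difference was -1.61 with EAA and -1.26 in the reference (SE 0.40), or 3.06 and 2.39 times lower. Without MEA day 5 replicates 1 and 3 the SE was 0.19.

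The MEA arrays of SCPL45 had 6.07, 4.35 and 6.69 on day 5, against 6.39, 6.03 and 6.45 on day 1. Replicate 2 was again the lowest of the 18 arrays, and replicate 3 was the highest. The mean difference of -0.59 (SE 0.40) was -1.94 from replicate 2 alone and 0.09 from replicates 1 and 3, so its sign rests on 1 array. EAA minus reference was -0.27 on day 5 and 0.08 on day 1 (SE 0.40). Without MEA day 5 replicates 1 and 3 the day 5 difference was the same and its SE was 0.19. MEA minus reference was 0.73 on day 5, and -0.62 when replicate 2 alone stood for MEA. On day 1 it was 0.07.

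scpl50 was the gene in which day 5 stood apart with EAA but not in the NaCl reference. Its EAA arrays had 4.70, 4.96 and 5.29 on day 5, against 6.13, 5.68 and 5.88 on day 1. Its reference arrays had 5.65, 5.85 and 5.98 on day 5, against 5.87, 6.05 and 5.73 on day 1. The EAA arrays did not overlap between the days, and the reference arrays did. The difference between the days was -0.92 with EAA (1.89 times lower) and -0.06 in the reference (SE 0.28). All 3 EAA arrays of day 5 also lay below all 3 reference arrays of that day, with a mean of 4.98 ± 0.29 for EAA and 5.83 ± 0.17 for the reference (SD, n = 3 each). EAA minus reference was -0.85 on day 5 and 0.01 on day 1 (SE 0.28), a change of -0.86 between the days (SE 0.39). Without EAA day 5 replicate 1, the array with the high actin difference, EAA minus reference on day 5 was -0.71 (SE 0.31). The EAA difference between the days was then -0.78.

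scpl50 with MEA had 6.08, 4.76 and 5.95 on day 5, against 6.01, 6.12 and 5.61 on day 1. Replicates 1 and 3 lay among the day 1 arrays, and replicate 2 lay with the EAA arrays of day 5. The mean difference of -0.32 (SE 0.28) was -1.15 from replicate 2 alone and 0.10 from replicates 1 and 3. MEA minus reference was -0.23 on day 5 and -1.07 from replicate 2 alone. On day 1 it was 0.03.

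**Figure D1:**
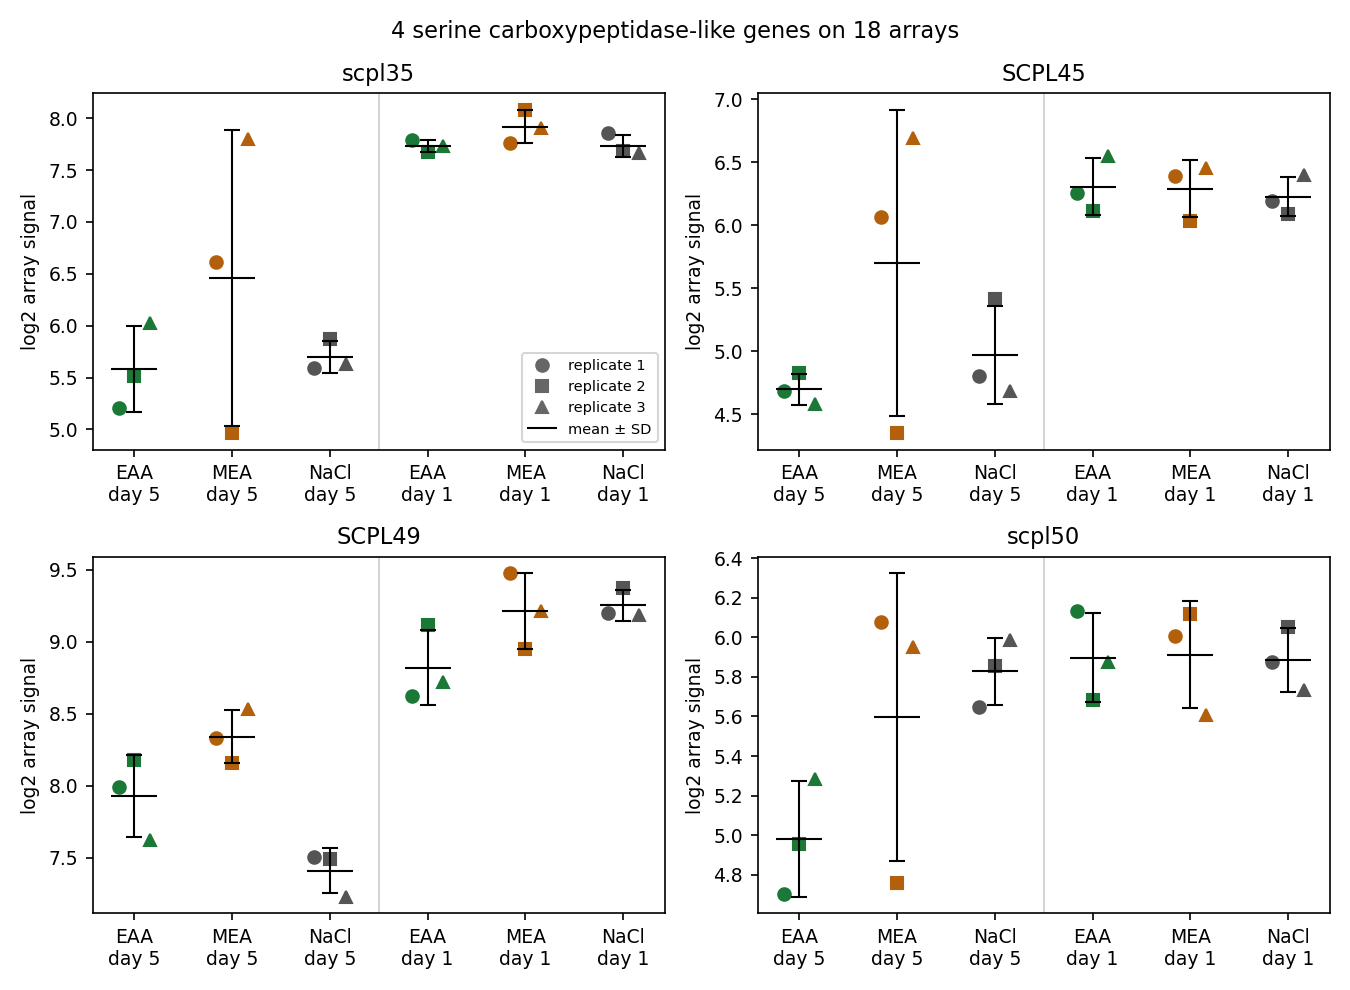
Log2 array signal (vertical axis) of scpl35, SCPL45, SCPL49 and scpl50 on the 18 arrays, by treatment and day; each point is 1 array, its shape is the replicate number, and bars are the mean ± SD of 3 arrays. The EAA and NaCl arrays of day 5 sit below day 1 for scpl35, SCPL45 and SCPL49, and the MEA arrays of day 5 are spread widely for all but SCPL49.

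**Figure D2:**
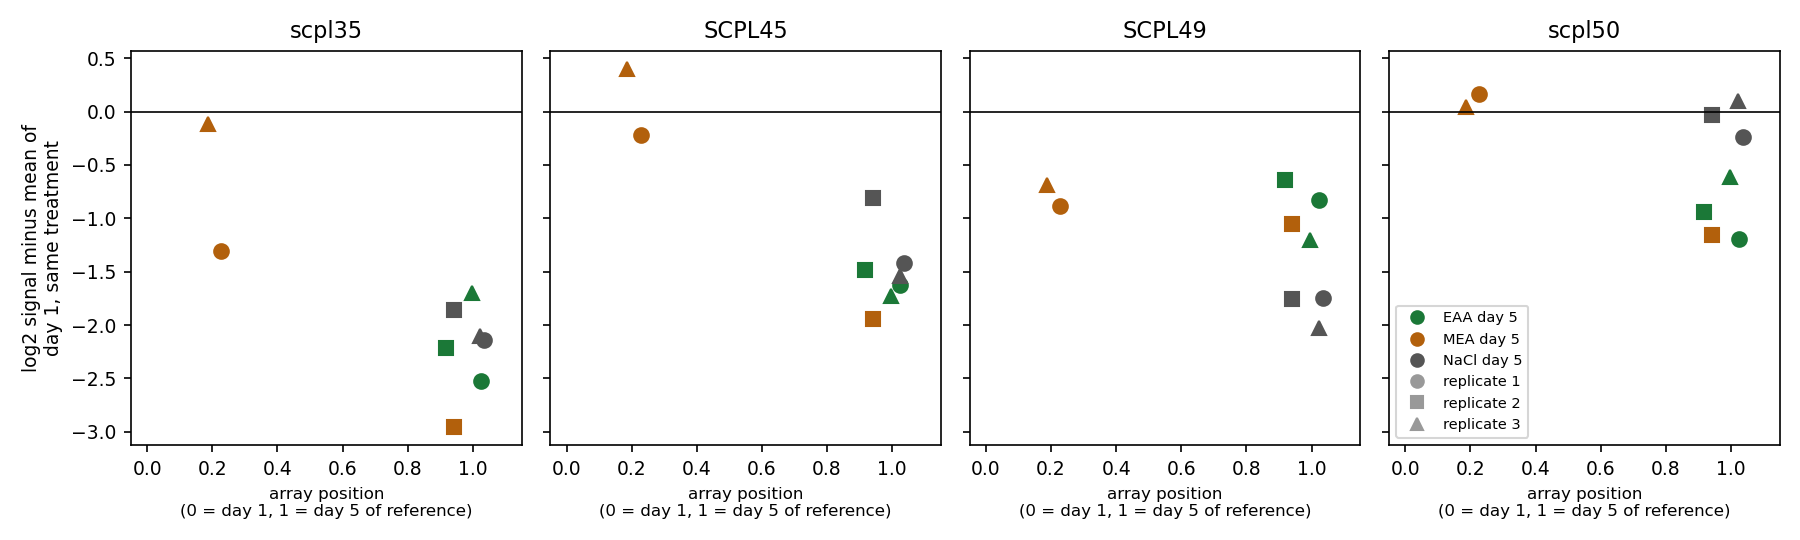
Signal of each day 5 array minus the day 1 mean of its treatment (vertical axis, log2) against the position of that array between the reference days (horizontal axis, 0 for day 1 and 1 for day 5) for the 4 genes; colour is the treatment and shape the replicate number. MEA replicates 1 and 3 lie at 0.228 and 0.186 and near the zero line for SCPL45 and scpl50, whereas MEA replicate 2 lies at 0.941 with values of -2.96 for scpl35 and -1.94 for SCPL45.

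Directly between the extracts on day 5, EAA minus MEA was -0.88 for scpl35, -1.01 for SCPL45, -0.41 for SCPL49 and -0.61 for scpl50. The EAA and MEA arrays overlapped for each of the 4 genes. Against MEA replicate 2 alone the difference was 0.62 for scpl35, 0.35 for SCPL45 and 0.22 for scpl50, the opposite sign. On day 1 EAA minus MEA was -0.19 for scpl35, 0.02 for SCPL45, -0.39 for SCPL49 and -0.01 for scpl50. The overlap holds on day 1 for all 4 genes too.

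**Figure D3:**
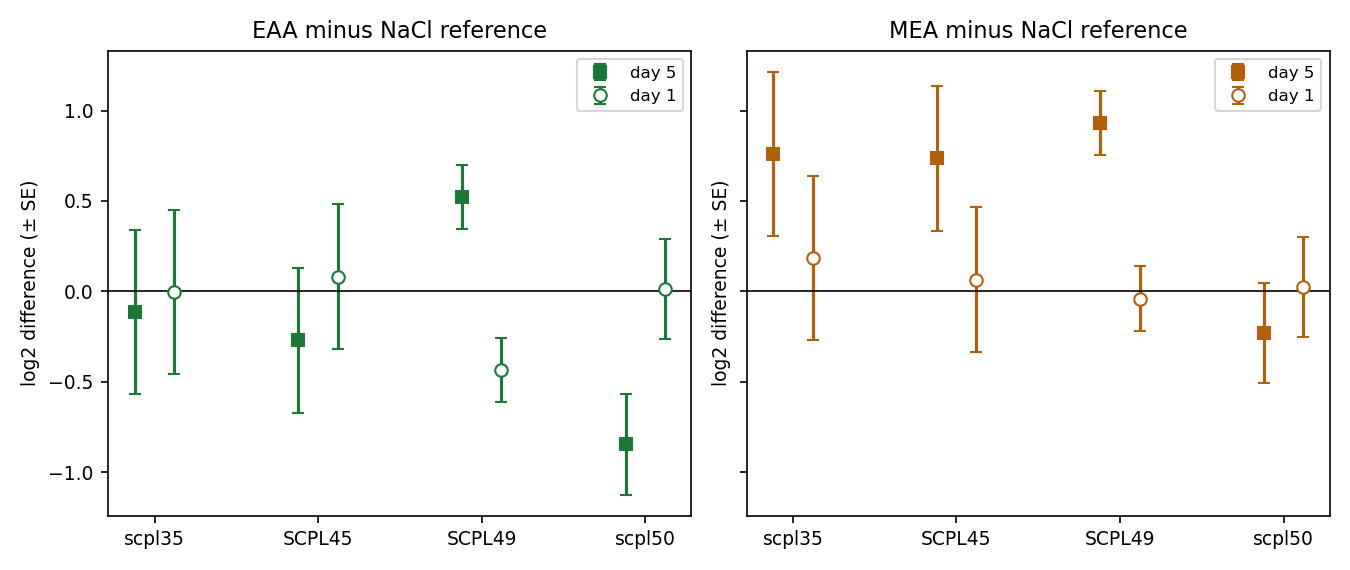
Log2 difference (vertical axis, ± SE) of EAA (left panel) and MEA (right panel) from the NaCl reference for scpl35, SCPL45, SCPL49 and scpl50, on day 5 (filled squares) and day 1 (open circles). SCPL49 is at 0.52 and 0.93 over the reference on day 5 and at -0.43 with EAA on day 1, and scpl50 is at -0.85 with EAA on day 5.

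Between the days, all arrays of day 5 lay below all arrays of day 1 for 4 of 4 genes with EAA, where 30.5% of the 13648 probe sets kept for testing did so. The count was 3 of 4 in the reference (28.3% of probe sets) and 1 of 4 with MEA (12.1%). Against the reference on day 5, EAA lay wholly below for 1 of 4 (8.11% of probe sets) and wholly above for 1 of 4 (5.77%), and MEA wholly above for 1 of 4 (7.29%). On day 1 EAA lay wholly below for 1 of 4 (10.7%). These counts come from the differences that chose the genes, so the shares are given as background only. In whole leaves, fewer cells of a type that expresses a gene and less RNA of it per cell cannot be told apart.

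The order of the group means showed how far neighbouring groups could be separated. For scpl35 the order from high to low was MEA day 1, reference day 1, EAA day 1, MEA day 5, reference day 5 and EAA day 5, and each neighbouring pair of groups overlapped. SCPL45 ran from EAA day 1 through MEA day 1, reference day 1, MEA day 5 and reference day 5 to EAA day 5, also with overlap at each step. scpl50 ran from MEA day 1 through EAA day 1, reference day 1, reference day 5 and MEA day 5 to EAA day 5, with overlap at each step. SCPL49 ran from reference day 1 through MEA day 1, EAA day 1, MEA day 5 and EAA day 5 to reference day 5. Its EAA day 1 and MEA day 5 arrays were apart, as were its EAA day 5 and reference day 5 arrays.

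The profiles of the 4 genes were set side by side after each was centred on its own mean over the 18 arrays. The root-mean-square (RMS) difference was smallest between scpl35 and SCPL45, at 0.456 log2 units, and largest between scpl35 and scpl50, at 0.851. SCPL49 lay at 0.498 from SCPL45, 0.651 from scpl35 and 0.690 from scpl50, and SCPL45 lay at 0.572 from scpl50. The spread of a gene about its own mean was 1.103 for scpl35, 0.787 for SCPL45, 0.697 for SCPL49 and 0.445 for scpl50. Among 1061 probe sets with a gene symbol, the closest to scpl35 were MAP1C, a methionine aminopeptidase, at 0.348, then CPI1, a sterol isomerase, at 0.351 and CHLI2, a subunit of magnesium chelatase, at 0.353. The closest to SCPL45 were HTB2, a histone H2B, at 0.229, IQD31 at 0.230 and the calmodulin-like CML42 at 0.246. The protease inhibitor SERPIN1 at 0.263, the starch-phosphorylating enzyme PWD at 0.269 and CCL at 0.291 were closest to SCPL49. The cytosolic isocitrate dehydrogenase cICDH at 0.233, the photosystem II subunit PSBY at 0.236 and LIL3:1 at 0.253 were closest to scpl50. Ahead of the first named gene, 42 probe sets without such a symbol lay closer to scpl35, 14 to SCPL45, 16 to SCPL49 and 11 to scpl50. These values describe 18 arrays that share groups and processing.

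Of the 25 other SCPL genes, 9 reached the signal needed for testing and 16 did not. The 16 averaged 2.89 to 3.97 on the log2 scale, under the limit of 4.01, and are not compared. The 9 tested genes are those left when the 4 picked for their differences are set aside and the limit on mean signal is applied, and that members of the family fell between the days with EAA was already known from these data. With EAA 4 of the 9 fell between the days and 0 rose, at an adjusted p under 0.05 from limma's test with Benjamini-Hochberg adjustment over all probe sets kept; 20.8% of all probe sets fell and 15.7% rose. In the reference 2 of 9 fell and 0 rose, where 16.9% of all probe sets fell and 14.1% rose. With MEA 1 of 9 fell and 0 rose (2.33% and 1.59% of all probe sets). The reference count was 0 without reference day 1 replicate 1, 1 without day 1 replicate 3, day 5 replicate 1 or day 5 replicate 2, and 4 without MEA day 5 replicate 2, where 22.4% of all probe sets fell. The MEA count was 3, all lower, without MEA day 5 replicate 3 (7.95% of all probe sets fell). Without MEA day 5 replicate 2 scpl20 fell and scpl25 rose (5.18% and 2.45% of all probe sets). The MEA count was 0 without MEA day 5 replicate 1, any MEA or EAA array of day 1, or reference day 1 replicate 1 or 3. After centring each array on its median these shares became 16% lower and 21.8% higher with EAA, 13.4% and 17.7% in the reference, and 1.41% and 1.99% with MEA. The median difference of the 9 genes was -0.50 with EAA, -0.27 with MEA and -0.19 in the reference, against -0.02, -0.04 and -0.01 over all probe sets tested.

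scpl20 (AT4G12910, 254791_at) was the most evenly measured of these genes. With EAA its signal was 7.52, 7.35 and 7.46 on day 5, against 7.94, 7.97 and 7.93 on day 1, a fall of -0.50 (SE 0.10, limma adjusted p = 0.00223). In the reference it averaged 7.48 ± 0.12 on day 5 and 7.84 ± 0.07 on day 1 (SD, n = 3 each), a fall of -0.36 (limma adjusted p = 0.0152). With MEA the fall was -0.41 (limma adjusted p = 0.0357), and its MEA arrays of day 5 lay between 7.52 and 7.72. The arrays did not overlap between the days in any treatment. The MEA call was lost under 14 of 27 alternative settings (limma adjusted p from 0.00171 to 0.481). The reference call was lost under 4 of 28, namely median centring (0.0756), and without reference day 1 replicate 1 (0.0578), day 1 replicate 3 (0.0520) or day 5 replicate 2 (0.0592).

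scpl26 (AT2G35780, 265795_at) fell by more than scpl20, with EAA and in the reference. With EAA it had 6.88, 7.64 and 7.95 on day 5, against 8.55, 8.54 and 8.75 on day 1, a difference of -1.12 (SE 0.28, limma adjusted p = 0.00785). Its reference arrays had 7.28, 7.82 and 7.76 on day 5, against 8.86, 8.43 and 8.70 on day 1, a difference of -1.04 (limma adjusted p = 0.0125). The day 5 arrays lay below the day 1 arrays in both treatments. The reference call was lost without reference day 1 replicate 1 (limma adjusted p = 0.0529) or day 5 replicate 1 (0.0580). With MEA its day 5 arrays had 8.12, 7.45 and 8.72, so replicate 2 was low as it was for scpl35 and SCPL45.

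SCPL27 (AT3G07990, 258633_at) and SCPL34 (AT5G23210, 249847_at) passed the test between the days with EAA, and not with MEA or in the reference when all arrays were used. The change of EAA minus reference between the days, which tests whether these treatments differ, passed for neither (limma adjusted p = 0.996 for each). SCPL27 had 5.49, 6.10 and 5.97 with EAA on day 5, against 6.96, 6.68 and 6.75 on day 1, a fall of -0.94 (SE 0.21, limma adjusted p = 0.00389). SCPL34 had 5.05, 5.59 and 5.45 with EAA on day 5, against 6.31, 6.58 and 6.79 on day 1, a fall of -1.20 (SE 0.38, limma adjusted p = 0.0227). Neither gene had an overlap between the days with EAA. In the reference SCPL27 differed by -0.48 (limma adjusted p = 0.0911) and SCPL34 by -0.80 (0.118), again with all day 5 arrays below all day 1 arrays. Both reference differences passed without MEA day 5 replicate 2 (limma adjusted p = 0.0235 for SCPL27 and 0.00143 for SCPL34), and that of SCPL27 also without MEA day 5 replicate 3 (0.0498). With MEA SCPL27 differed by -0.72 (limma adjusted p = 0.0704), without overlap, and passed without MEA day 5 replicate 3 (-0.94, 0.00959). SCPL34 with MEA differed by -0.49 (limma adjusted p = 0.488), and its day 5 replicates 1 and 3 lay above day 1. SCPL34 lost its call without EAA day 1 replicate 2 (limma adjusted p = 0.0559), EAA day 1 replicate 3 (0.0799) or EAA day 5 replicate 1 (0.0869), the array with the high actin difference. The EAA calls of scpl20, scpl26 and SCPL27 were kept under all 28 alternative settings.

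**Figure D4:**
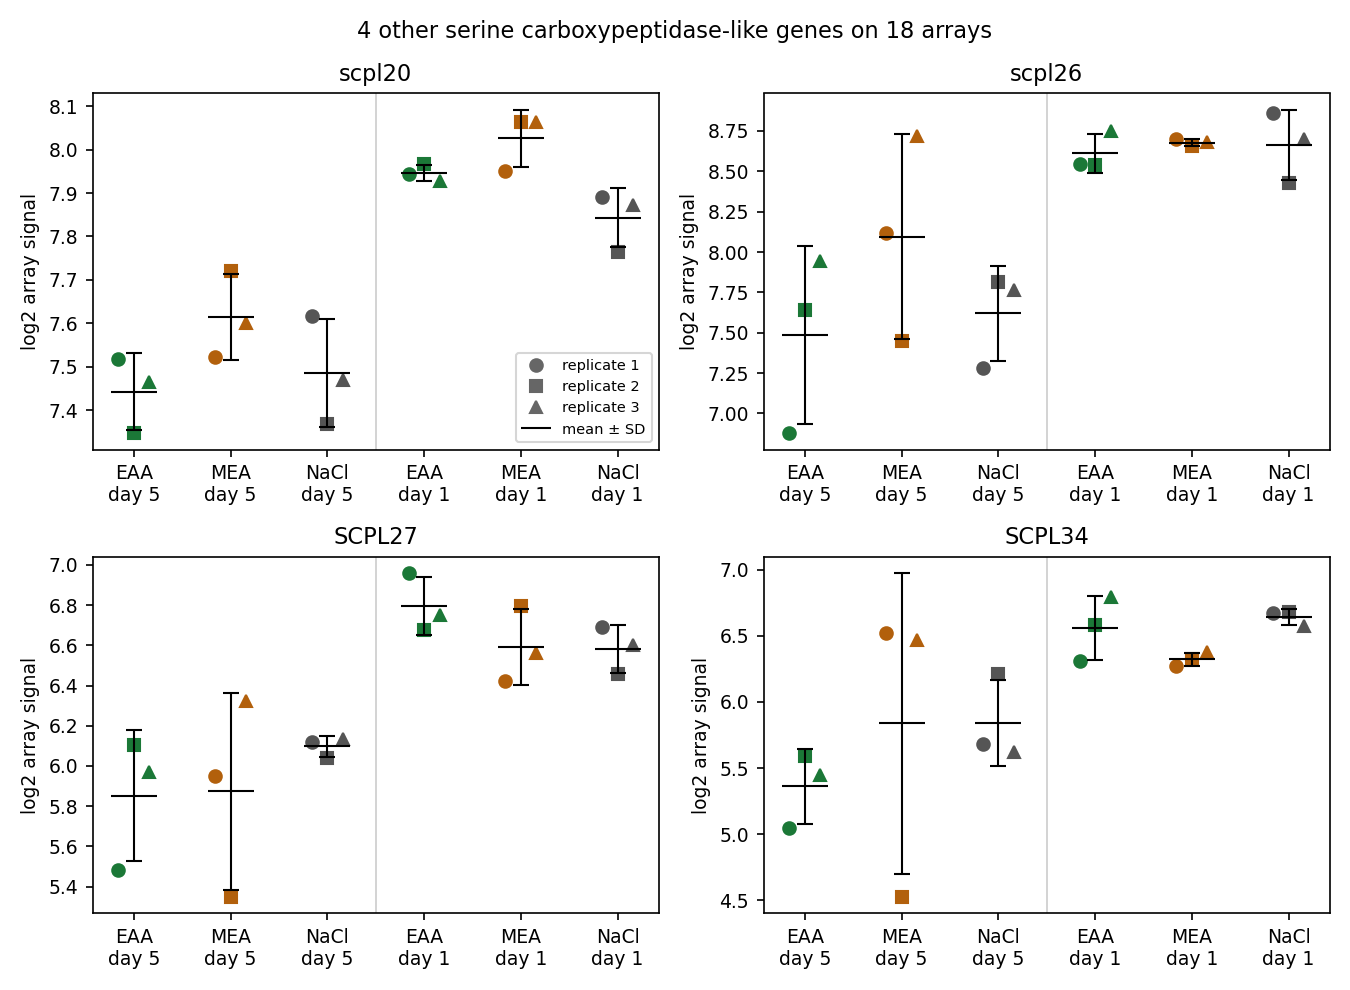
Log2 array signal (vertical axis) of scpl20, scpl26, SCPL27 and SCPL34 on the 18 arrays, by treatment and day; points are arrays, shapes are replicate numbers, and bars are the mean ± SD of 3 arrays. With EAA all day 5 arrays lie below all day 1 arrays for each of these 4 genes, and MEA day 5 replicate 2 of SCPL34 is at 4.53, against 6.52 and 6.47 for replicates 1 and 3.

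The other 5 tested genes passed in none of the 11 comparisons in the main fit by limma. With array weights scpl48 and scpl25 passed between the days with EAA (limma adjusted p = 0.0239 and 0.00901). With MEA scpl29 fell (0.0402) and scpl25 rose (0.0100). For EAA against MEA on day 5 scpl25 (0.00106) and scpl46 (0.0191) passed. scpl25 also passed for MEA against the reference on day 5 (0.0104) and for the MEA change between the days (0.00741). That setting called 7595 of all probe sets between the days with EAA and 3233 with MEA. scpl29 averaged 8.29 ± 0.07 with EAA on day 5 and 8.52 ± 0.04 on day 1, a difference of -0.23 (limma adjusted p = 0.144). scpl48 differed by -0.34 with EAA between the days (limma adjusted p = 0.195) and scpl42 by -0.30 (0.249). scpl46 differed by -0.31 with EAA (limma adjusted p = 0.155) and by 0.28 in the reference (0.213). scpl25 differed by -0.62 with EAA (limma adjusted p = 0.0789), by 0.46 with MEA (0.335) and by -0.14 in the reference (0.713). Without MEA day 5 replicate 2 scpl25 differed by 0.84 with MEA (limma adjusted p = 0.0188), and its unchanged EAA difference passed (0.00990). A missed threshold does not show that these genes were level.

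Between treatments, limma in the main fit called 0 of the 9 other genes in any of the 6 comparisons of EAA, MEA and reference on a single day. At an unadjusted p under 0.05 by limma the count was 2 for EAA against the reference on day 5, where 1017 of the 13648 probe sets passed. It was 3 for EAA against MEA on day 5, where 3763 probe sets passed, and 0 in the other 4. Among these, 3715 probe sets passed for MEA against the reference on day 5. On day 1, 436 passed for EAA against the reference, 169 for MEA against the reference and 324 for EAA against MEA. Without MEA day 5 replicate 2, 3 of 9 passed as higher with MEA than in the reference on day 5 and 4 of 9 as lower with EAA than with MEA, where 16.5% and 20.5% of all probe sets did so. In the main fit, the shares of probe sets called were 0% for EAA against the reference on day 5, 10.7% for MEA against the reference on day 5 and 3.85% for EAA against MEA on day 5. On day 1 they were 0.022% for EAA against the reference, 0% for MEA against the reference and 0.022% for EAA against MEA. For the change of an extract difference between the days, 0 of 9 passed for EAA and 0 of 9 for MEA. The share of all probe sets called was 0.00733% and 0.103%. At an unadjusted p under 0.05 by limma the counts were 1 and 0 of 9, and 650 and 1902 of the 13648 probe sets. Without MEA day 5 replicate 2 the MEA count was 2, both higher, where 9.7% of all probe sets were higher.

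**Figure D5:**
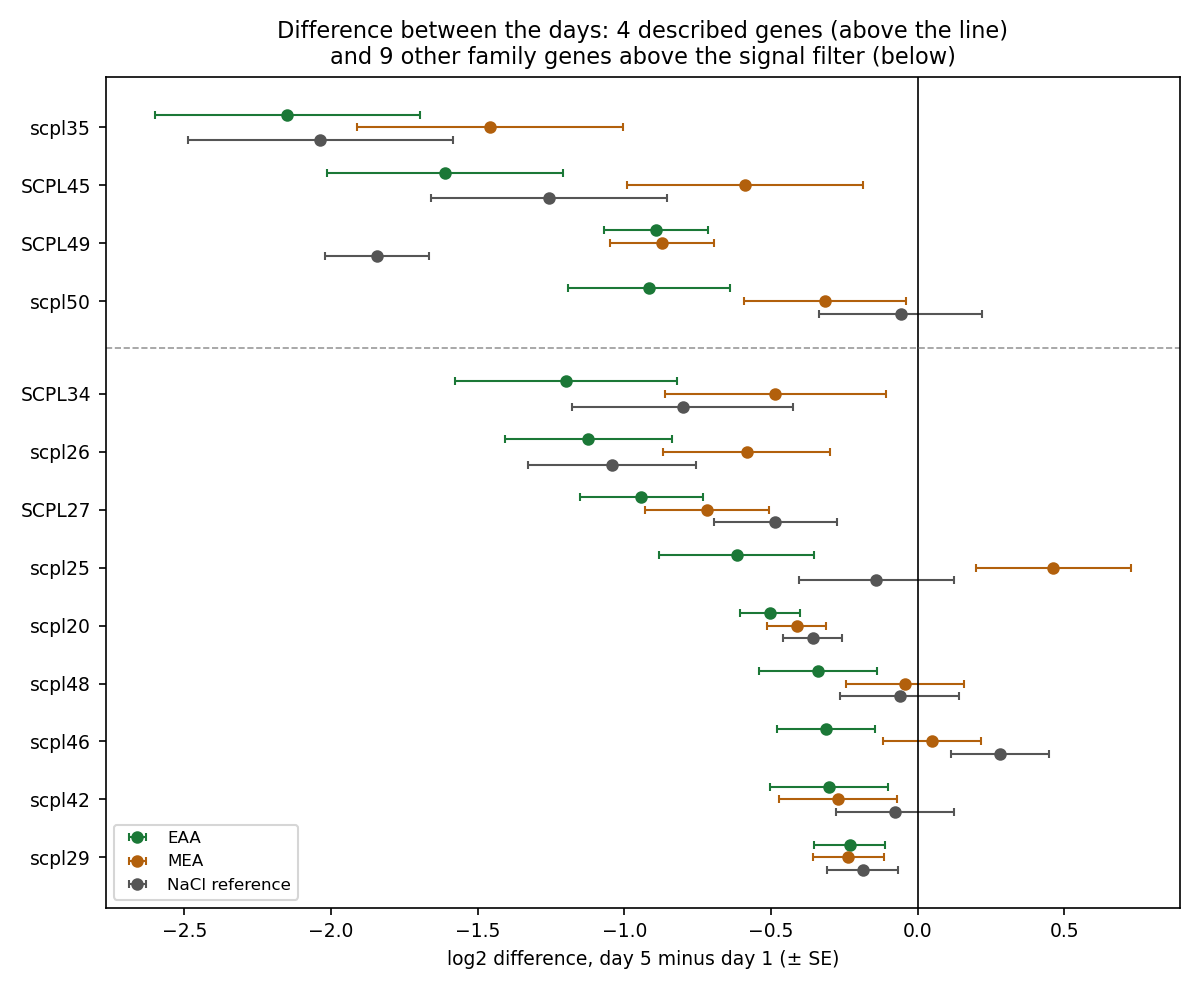
Log2 difference between day 5 and day 1 (horizontal axis, ± SE) for scpl35, SCPL45, SCPL49 and scpl50 (above the dashed line) and the 9 other tested family genes (below it), by treatment. With EAA all 13 genes lie left of zero; in the NaCl reference scpl46 lies at 0.28, and with MEA scpl25 lies at 0.46.

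Other genes of protein breakdown were looked at through a list of 45 vacuolar and senescence proteases, of which 9 had a named probe set and 7 were tested. With EAA 2 of 7 rose and 1 fell between the days (15.7% and 20.8% of all probe sets), and the median was -0.05. In the reference 1 rose and 1 fell (14.1% and 16.9% of all probe sets), with a median of -0.27, and with MEA 0 of 7 passed, with a median of 0.12. The subtilase ARA12 rose by 0.95 with EAA (limma adjusted p = 0.0389) and by 1.12 in the reference (0.0211). BETA-VPE, a vacuolar processing enzyme, rose by 1.22 with EAA (limma adjusted p = 0.0278), against a difference of 0.98 in the reference that did not pass (0.0775). NANA, an aspartic protease of the chloroplast, was the member that fell, by -1.01 with EAA (limma adjusted p = 0.0433) and by -1.20 in the reference (0.0223). The remaining tested members GAMMA-VPE, APA1, SBT3.3 and SBT3.5 did not pass between the days. From MEA day 5 replicate 2 alone, a single array given with no test, the MEA differences between the days were 1.66 for ARA12, 1.49 for BETA-VPE and -1.76 for NANA. The list thus held genes that rose and a gene that fell.

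Sinapate ester genes were listed because SNG1 and SNG2 belong to the SCPL family; 5 of 21 had a named probe set and 3 were tested, while SNG1 and SNG2 themselves are not analysed here. HCT, an acyltransferase of phenylpropanoid synthesis, rose between the days by 0.65 with EAA (limma adjusted p = 0.00106) and by 0.87 in the reference (8.21e-05). With MEA it differed by 0.43 (limma adjusted p = 0.0502). On day 5 MEA minus reference was -0.59 (limma adjusted p = 0.00709, where 6.65% of all probe sets were lower) and EAA minus MEA was 0.44 (0.0485, where 1.88% were higher). With replicate 2 alone standing for MEA, a single array given with no test, the differences were -0.46 and 0.31. UGT84A3, which makes sinapoylglucose, and ALDH2C4 passed in no comparison.

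The labelled tissue was checked against marker genes. The leaf markers with a probe set were 3 of 19: RCA at 13.32 to 14.02, LHCB4.1 at 11.63 to 13.21 and PRK at 11.11 to 12.41 over the 18 arrays. The root markers with a probe set were 2 of 12, PYK10 at 2.95 to 3.97 and EXPA7 at 2.92 to 3.53, both under the limit for testing, and 0 of 10 flower and seed markers had a named probe set. RCA rose between the days in the reference by 0.55 (limma adjusted p = 0.00175), and LHCB4.1 fell with EAA by -0.85 (limma adjusted p = 0.0159). Their part in the SCPL values was not tested.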

How the data were processed

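The deposited table holds 1 log2 array signal per probe set for 18 arrays; per the submitters' processing notes the authors used MAS5, whereas nothing in the sources states its version, the scaling between arrays or the step to logs. The log2 unit was judged from the values, which span 2.25 to 14.02. The number of arrays, 3 per group, limits the precision. The 64 control probe sets were left out of the tests. Of all probe sets 13513 had 1 gene, 503 several and 8794 none in the platform annotation; symbols were updated through RefSeq (TAIR10.1), where 13436 matched and 1580 had a symbol. A member or list gene was matched by symbol without regard to case.

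Values were used as deposited. A probe set was kept when its mean reached 4.01, the 40th percentile over 22746 non-control probe sets, which left 13648. limma 3.58.1 in R 4.3.3 fitted 1 mean per group (lmFit, eBayes with an intensity trend; 12 residual degrees of freedom), with Benjamini-Hochberg adjustment over all kept probe sets in each of 11 contrasts and a threshold of 0.05. The spread is shared by the 6 groups, so the wide MEA day 5 group enters every SE. The script was tested on simulated data. Tables and plots used Python 3.11.15, pandas 2.3.3 and matplotlib 3.10.9.

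The 4 genes, the family and the lists were chosen with earlier results of these data known. Named are the 4 genes, every other family gene that passed a comparison in the main fit, then the 4 with the highest mean signal. The last of the 9 tested, scpl25, and scpl33 were added after their values were seen. The 3 probe sets named as closest to each gene are those with the smallest RMS difference. Alternatives were 28 settings: scaling, filter, variance model, array weights, arrays in the fit, the replicate number as a block, and each array left out.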

Additional observations from a re-analysis of the deposited data

Results flagged for a closer look

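For 3 genes, every array of 1 treatment or day differed from the mean of its comparison group in 1 direction, and every array of another in the opposite direction. How many of all probe sets did so was not counted, so these genes are given as values without a background. SCPL49 had EAA minus reference at 0.52 on day 5 and -0.43 on day 1, a distance of 0.95; the gene was chosen for such differences, and the distance was not tested. scpl46 had a day 5 minus day 1 difference of -0.31 with EAA and 0.28 in the reference, a distance of 0.59. The same distance read across the treatments was -0.59, from EAA minus reference of -0.37 on day 5 and 0.22 on day 1; limma's test of it gave an adjusted p = 0.968. scpl25 had EAA minus MEA at -0.72 on day 5 and 0.36 on day 1, a distance of -1.08 that was not tested. Its MEA arrays of day 5 had 6.33, 5.26 and 6.48, so replicate 2 lay apart there as well. That replicate lay among the EAA arrays of day 5, which had 5.21, 5.47 and 5.25. The day 5 direction of scpl25 therefore rests on MEA replicates 1 and 3.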

How the results depend on the processing

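The counts of other SCPL genes past the threshold moved with the arrays used, as did the share of all probe sets called. Between the days, the reference count of 2 was 1 after median centring and 4 with array weights, without the MEA day 5 group, with only the groups compared, or without MEA day 5 replicates 1 and 3. Of all probe sets 30.9% passed there in the main fit, 52.1% with array weights and 43.9% without the MEA day 5 group. The MEA count of 1 was 0 after median centring, quantile normalization, no filter or only the groups compared, 4 with array weights (1 higher, 3 lower) and 3 without MEA day 5 replicates 1 and 3, where 37.9% of all probe sets passed. That setting leaves 1 MEA array of day 5, assumed to vary like the other groups. The EAA count of 4 was 6 with array weights and 4 or 5 under the other settings that keep all its arrays. With array weights 7595 of the 13648 probe sets passed between the days with EAA and 3233 with MEA, against 4975 and 535 in the main fit. With array weights the count was 3 for MEA against the reference on day 5, 4 for EAA against MEA on day 5 and 2 for the MEA change between the days, where 44.1%, 45.5% and 32.9% of all probe sets passed; without MEA day 5 replicates 1 and 3 the first was 1 (SCPL34, lower; 3.31% of all probe sets). Without MEA day 5 replicates 1 and 3, the MEA difference between the days was -2.96 for scpl35, -1.94 for SCPL45, -1.05 for SCPL49 and -1.15 for scpl50. MEA minus reference on day 5 was then -0.74 for scpl35 and -0.62 for SCPL45, both of opposite sign, 0.75 for SCPL49 and -1.07 for scpl50. EAA minus MEA on day 5 was 0.62 for scpl35, 0.35 for SCPL45 and 0.22 for scpl50, and the MEA change between the days was -0.92 for scpl35 and -0.69 for SCPL45, each of opposite sign. With array weights the MEA change of scpl50 was 0.19, also of opposite sign. The cause of these shifts was not tested.

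Leaving out 1 array at a time gave 0 to 4 other genes between the days in the reference, 3 to 5 with EAA and 0 to 3 with MEA. It gave 0 to 3 for MEA against the reference on day 5, 0 to 4 for EAA against MEA on day 5, 0 to 2 for the MEA change between the days and 0 to 0 in the other 5 comparisons. The counts of 4 in the reference, 3 and 4 on day 5 and 2 for the MEA change were those without MEA day 5 replicate 2. The MEA change between the days, 0.58 for scpl35, 0.67 for SCPL45, 0.97 for SCPL49 and -0.26 for scpl50, spanned -0.09 to 1.33, 0.17 to 1.35, 0.84 to 1.103 and -0.50 to 0.16. The day difference of scpl35 spanned -2.37 to -1.96 with EAA, -2.13 to -0.71 with MEA and -2.12 to -1.98 in the reference. For SCPL45 it spanned -1.71 to -1.49, -1.08 to 0.09 and -1.48 to -1.12 in that order, for SCPL49 -1.01 to -0.74, -1.003 to -0.74 and -1.89 to -1.75, and for scpl50 -1.07 to -0.78, -0.56 to 0.10 and -0.14 to 0.03. EAA minus reference on day 5 spanned -0.34 to 0.07 for scpl35, -0.41 to -0.05 for SCPL45, 0.40 to 0.67 for SCPL49 and -0.999 to -0.71 for scpl50. MEA minus reference on day 5 spanned 0.09 to 1.51, 0.24 to 1.41, 0.84 to 1.02 and -0.47 to 0.19 in the same gene order. Without EAA day 5 replicate 1, the EAA difference between the days was -1.96, -1.60, -0.92 and -0.78 in that order. EAA minus reference on day 5 was then 0.07, -0.26, 0.49 and -0.71.

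Median centring moved the median of all probe sets between the days with EAA to 0.09, against -0.02 as deposited, and scpl35, SCPL45, SCPL49 and scpl50 were then at -2.03, -1.50, -0.78 and -0.80. The reference difference of scpl50 changed sign there, at 0.03. Replicate numbers did not pair the samples: deviations of same-numbered arrays had a median correlation of 0.0233 (45 pairs, -0.441 to 0.433), and 6 of 18 arrays correlated best with their own number. With the replicate number as a block the counts between the days stayed at 4 with EAA, 1 with MEA and 2 in the reference.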

Other observations

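scpl33 (AT3G17180, 257881_at) averaged 3.97 over the 18 arrays, just under the limit for testing, and was singled out after its values were seen. Its signal with EAA was 4.87, 5.18 and 5.23 on day 5, against 3.58, 3.41 and 3.28 on day 1. With MEA it was 3.59, 7.24 and 3.44 on day 5, against 3.25, 3.72 and 3.38 on day 1. In the NaCl reference it was 4.101, 3.68 and 3.66 on day 5, against 3.38, 3.23 and 3.17 on day 1. The EAA arrays of day 5 were thus the highest apart from MEA replicate 2, the array on which scpl35 and SCPL45 were at their lowest. With no filter on low signal the difference between the days with EAA was 1.67 (SE 0.63, limma adjusted p = 0.0670), which did not pass.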
